A study of Arabidopsis thaliana with 8 samples.

Results

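Arabidopsis thaliana seeds of the line 35S-GSH1 imbibed at 4 °C were compared with seeds of that line imbibed at 22 °C. The comparison takes 4 of the 8 arrays of the series, chosen by the labels for genotype and temperature, with 2 arrays at each temperature. The other 4 arrays hold wild-type Col-0 seeds, 2 at each temperature. Each array is a single-colour Affymetrix array hybridised with total RNA of seeds after 24 h of imbibition. The 35S-GSH1 line is in the Columbia (Col-0) background and is labelled as overexpressing GSH1. GSH1 encodes glutamate-cysteine ligase, the enzyme that commits cysteine to glutathione, and 35S is a viral promoter that is active in most plant tissues. The labels equate 4 °C with vernalization and 22 °C with its absence. They give neither the number of transgenic lines nor the origin of the replicates in separate seed lots, and p-values therefore cover the spread between these arrays, which may be technical. The tables paired GSH1 with no probe set, and the genotype is therefore taken from the labels without a check. Below, the 35S-GSH1 arrays are called warm 1 and warm 2 (22 °C) and cold 1 and cold 2 (4 °C) after their replicate numbers.

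A dry seed holds stored messenger RNA from its maturation. When it takes up water it starts to translate, respire and repair itself, and it replaces the stored transcripts with those of a seedling. Moist cold is a classical treatment for releasing seed dormancy. Glutathione is the main thiol buffer of the cell and serves both antioxidant enzymes and the conjugating glutathione transferases. All samples were taken at the same time, and the stage reached at each temperature was not measured. A rise means that the cold arrays were higher and a fall that they were lower, and a response to temperature cannot be told apart from a difference in progress. In whole seeds, fewer cells of a type and less RNA per cell cannot be told apart either.

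Cold imbibition was accompanied by changes in both directions in 35S-GSH1 seeds. With limma, a linear model with moderated variances, 762 of 13648 probe sets passed an adjusted p of 0.05 (5.58%). A rise was seen in 382 and a fall in 380, and 177 rises and 196 falls reached 2-fold. Both cold arrays lay beyond both warm arrays in all 762. The share of all 13648 with such separation was not counted, so separate groups, here or below, add no support to a call. At an unadjusted p under 0.05 there were 2560. Values are log2(intensity + 1) after quantile normalization, so a fold change on this scale understates the change of a dim probe set. Probe sets with a mean under 2.86, the filter level, were not tested. Array by array, 35S-GSH1 replicates correlated at 0.966 (22 °C) and 0.972 (4 °C). Between the temperatures, 35S-GSH1 arrays correlated at 0.948 to 0.957. Replicates were often not the closest pairs. Cold 2 and cold 1 correlated with Col-0 4 °C replicate 2 at 0.980 and 0.974, and warm 2 with Col-0 22 °C replicate 2 at 0.968.

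The split by direction followed the scaling of the arrays. On the deposited scale 609 rose and 281 fell (68.4% higher, against 50.1%), and the median of all probe sets tested moved by 0.12. With each array centred on its median, 218 rose and 337 fell (39.3% higher). Single arrays weighed on the counts as well: 257 probe sets passed without warm 1, 357 without warm 2, 316 without cold 1 and 277 without cold 2. In all 8 fits that left out 1 array, 64 rises and 90 falls passed.

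**Figure D1:**
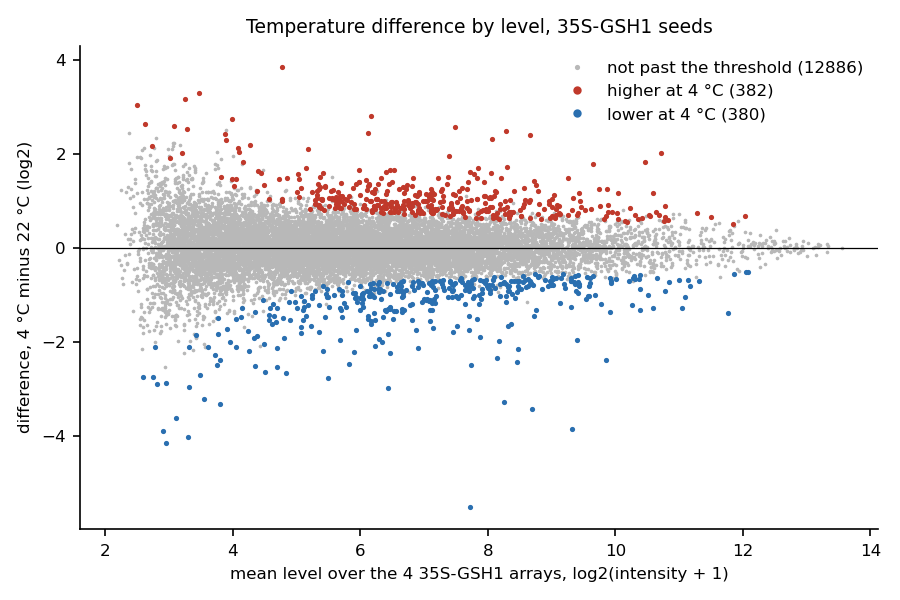
Difference between 4 °C and 22 °C in 35S-GSH1 seeds (log2, vertical axis) against the mean level over the 4 arrays (log2(intensity + 1), horizontal axis), 1 point per probe set tested. The 382 higher probe sets are red, the 380 lower ones blue and the other 12886 grey; bright probe sets passed at smaller differences than dim ones.

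**Figure D2:**
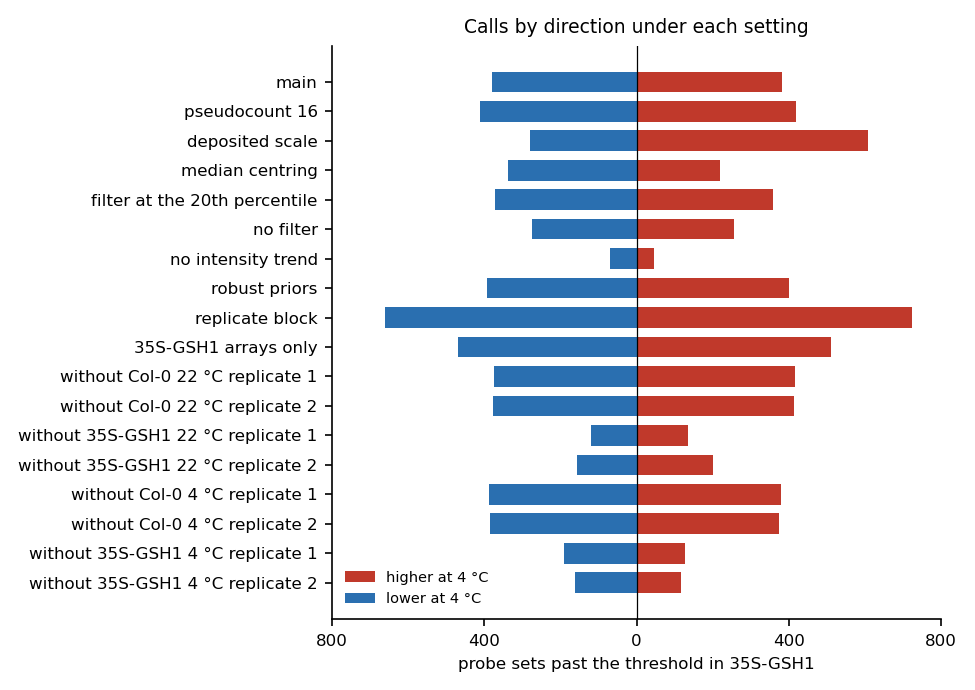
Number of probe sets past the threshold in 35S-GSH1 under each setting (horizontal bars, red to the right for higher at 4 °C, blue to the left for lower). The bars are shortest without the intensity trend (46 and 71) and longest with the replicate number as a block (724 and 662), and the balance of red and blue shifts on the deposited scale and with median centring.

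Genes were named from probe sets that the tables pair with 1 gene. These cover 7530 tested genes, of which 183 were higher (2.43%) and 168 lower (2.23%) at 4 °C, with a median difference over all tested genes of 0.0066. A gene symbol was available for 1006 of them, and 29 of these rose and 15 fell. The others are given by locus ID. The gene lists used below were written from general knowledge of Arabidopsis loci and not from an annotation of the array, so that membership states a list, not a function shown for that locus. They were also written with earlier results of these data known, so shares set beside those of all genes are descriptive. Where 1 or 2 members of a list were called, the count describes those genes and is not read as a result about the list.

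Among the rises were regulators of stress and growth. The zinc-finger gene STZ (also ZAT10), a repressor induced by many stresses, had the largest rise of the genes with a symbol. Its level was 9.60 and 9.81 on the warm arrays and 11.48 and 11.97 on the cold arrays, a rise of 2.01 (4.04-fold, SE 0.23, limma adjusted p = 0.000252, n = 2 per group). Every cold array was far above every warm one. AT3G19680 had 6.05 and 6.35 warm and 8.60 and 8.94 cold, a rise of 2.57 (5.93-fold, SE 0.24, limma adjusted p = 3.6e-05). It was the largest rise of a named gene measured above the filter level at both temperatures. AT1G18740, a locus of the early stress list, had 6.42 and 6.43 warm and 8.30 and 8.43 cold (difference 1.94, SE 0.20, limma adjusted p = 0.000108). AT2G42560, of the late embryogenesis abundant list, had 9.49 and 9.61 warm and 11.43 and 11.32 cold (difference 1.83, SE 0.15, limma adjusted p = 1.43e-05). Replicates of both loci nearly coincided beside the gap between the temperatures. ARL (ARGOS-like), which promotes cell expansion in cotyledons and leaves, rose by 1.62 from 7.10 and 6.74 to 8.46 and 8.62 (SE 0.29, limma adjusted p = 0.00464).

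The other 10 of the 15 named genes with the largest rises above the filter level were AT1G78410 (2.12), AT2G14800 (1.83), AT4G35985 (1.69), AT5G40340 (1.65), AT5G12350 (1.62), AT5G22690 (1.61), AT3G50340 (1.59), AT1G24530 (1.57), AT1G20390 (1.5) and AT5G04500 (1.5). AT4G35985 had the lowest limma adjusted p (0.000961) and AT1G20390 the highest (0.0406). AT4G35985, AT5G22690 and AT1G24530 passed whichever array was left out, as did STZ, AT3G19680, AT1G18740 and AT2G42560. The call of ARL was lost without warm 2 (limma adjusted p = 0.0605). Leaving out warm 1 ended the calls of AT1G78410 (0.134), AT1G20390 (0.246), AT5G40340 (0.0924) and AT5G04500 (0.0522). AT2G14800 and AT5G12350 had their highest adjusted p without cold 1 (0.180 and 0.141) and AT3G50340 without cold 2 (0.116), and these 3 were also lost without warm 1 and without the other cold array. AT1G78410 and AT1G20390 were lost without either cold array too, AT5G40340 without cold 2, AT5G12350 without warm 2, and AT1G20390 without either Col-0 array at 4 °C.

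Among the falls were loci of the low-oxygen and heat shock lists. The locus with the largest fall measured at both temperatures was AT5G19120, with 6.71 and 7.05 warm and 4.4 and 3.82 cold (difference -2.77, 6.84-fold lower, SE 0.35, limma adjusted p = 0.000535). AT3G03270, of the low-oxygen list, fell from 11 and 11.10 to 8.47 and 8.84 (difference -2.40, SE 0.24, limma adjusted p = 8.81e-05). AT5G51440, of the heat shock list, fell from 9.36 and 9.29 to 7.07 and 6.87 (difference -2.36, SE 0.18, limma adjusted p = 4.07e-06). In each of these loci both cold arrays were more than 2 log2 units below both warm arrays. ZCF37 fell by 2.65 from 6.05 and 5.61 to 3.97 and 2.39 (SE 0.47, limma adjusted p = 0.00462), and its cold arrays differed by more than its warm arrays did.

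The remaining large falls above the filter level were AT3G48140 (-2.67), AT3G28480 (-2.22), AT5G07870 (-2.20), AT3G45310 (-2.14), AT5G66985 (-2.13), AT1G29310 (-2.11), AT1G59660 (-2.04), AT5G56350 (-1.99), AT3G44190 (-1.99), AT1G17360 (-1.87) and AT2G18600 (-1.83). Of the 15 genes with the largest falls, 9 passed in every leave-one-out fit, namely AT5G19120, AT3G48140, AT3G03270, AT5G51440, AT3G28480, AT5G66985, AT5G56350, AT3G44190 and AT2G18600. Leaving out warm 1 ended the calls of ZCF37 (limma adjusted p = 0.0675), AT5G07870 (0.0655), AT3G45310 (0.0802) and AT1G17360 (0.110). Leaving out warm 2 ended those of AT1G29310 (0.0502) and AT1G59660 (0.130). AT1G59660 and AT5G07870 also missed the threshold without cold 1, AT1G59660 without warm 1, and AT1G17360 without warm 2 or cold 2.

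For 33 of the 762 probe sets the lower group mean lay below the filter level, and the size and rank of those differences rest on the dimmest values. The 5 genes with the highest such rises were AT5G57250, from 1.26 and 2.42 to 4.81 and 5.42, AT2G41770 (0.80 and 1.15 to 3.72 and 4.3), AT5G11070 (3.42 and 1.82 to 5.33 and 5.38), AT4G31875 (2.57 and 2.79 to 5.2 and 4.97) and AT3G06750 (3.72 and 1.78 to 5.03 and 5.04). In the other direction AT3G25290 went from 5.71 and 4.91 warm to 1.10 and 1.48 cold (limma adjusted p = 0.000131), AT4G33560 from 4.25 and 5.59 to 1.90 and 0.72, AT3G19360 from 5.13 and 5.18 to 2.59 and 1.31, AT2G14255 from 4.95 and 4.64 to 1.54 and 2.11, and AT1G77030 from 4.07 and 4.46 to 1.41 and 1.31. Groups without overlap were a condition for naming these 10, so their separation is not a result. AT3G25290, AT3G19360, AT5G11070 and AT4G31875 passed whichever array was left out. AT2G41770 and AT4G33560 passed in each leave-one-out fit that tested them but dropped below the filter in 4 and 3 of the fits. AT5G57250 was lost without warm 1 or either cold array (limma adjusted p up to 0.139, without cold 2) and AT3G06750 without warm 2 or either cold array (up to 0.156, without warm 2). AT1G77030 was lost without either warm array (up to 0.0853, without warm 2). AT2G14255 fell below the filter without warm 1 and was lost in the other 3 fits without a 35S-GSH1 array (up to 0.182, without cold 1).

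**Figure D3:**
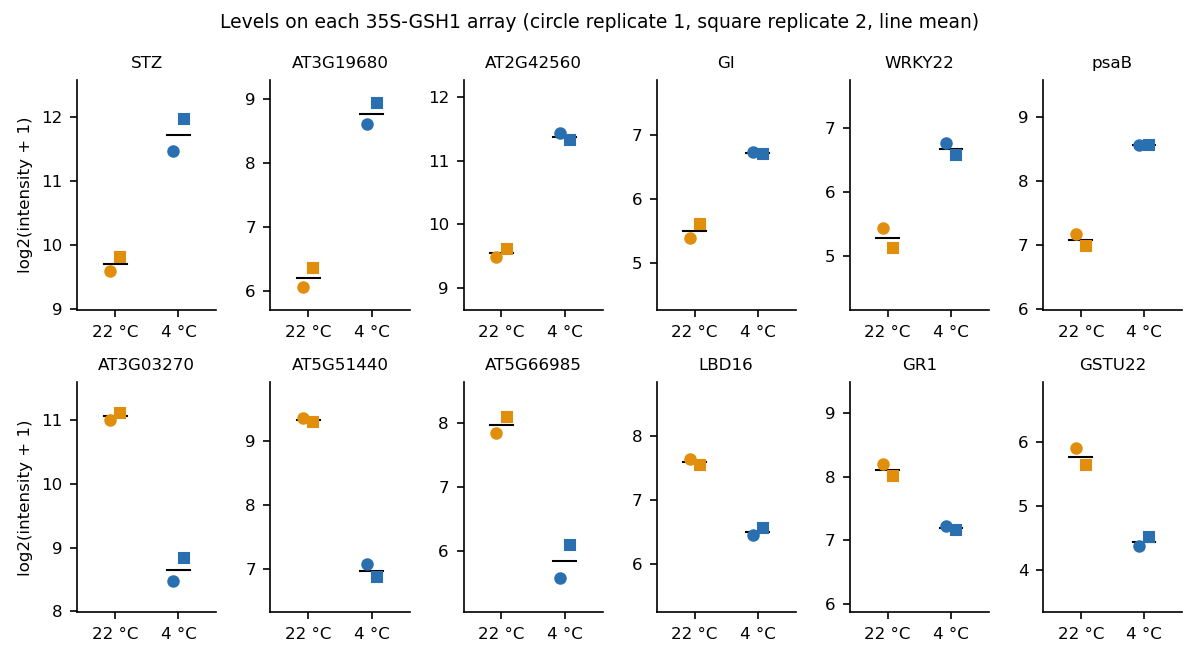
Level of 12 genes on each 35S-GSH1 array (log2(intensity + 1), vertical axes of equal span) at 22 °C (orange) and 4 °C (blue); circles are replicate 1, squares replicate 2 and lines the group means. In the upper row both cold arrays lie above both warm arrays, and in the lower row both lie below.

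Genes of the low-oxygen response were mostly lower in the cold. The list holds the core set that plant cells switch on when oxygen runs short, as it can inside hydrated seed tissue. Of 45 loci listed, 22 were on the array and 21 were tested. Of these, 11 fell while 2 rose, against 2.23% and 2.43% of all genes. The list was written with earlier results of these data known, so this contrast is a description and not a test. The median difference of the 21 was -0.97, beside 0.0066 for all genes, and it lay between -1.06 and -0.72 under every alternative setting. The number of calls was less stable. Without the intensity trend 6 members fell and 0 rose, and with median centring 10 fell and 1 rose. AT5G66985 went from 7.85 and 8.10 to 5.58 and 6.10 (difference -2.13, SE 0.36, limma adjusted p = 0.00365), and AT4G27450 from 12.59 and 12.34 to 10.98 and 11.14 (difference -1.40, SE 0.17, limma adjusted p = 0.000421). AT2G17850 went from 6.46 and 6.47 to 4.96 and 5.0 (difference -1.48, SE 0.22, limma adjusted p = 0.00169). In each of the 3 loci both cold arrays lay below both warm arrays, as in every call that fell. AT3G27220 (-1.34), AT4G39675 (-1.23) and AT1G26270 (-1.21) also fell and, like AT3G03270 and the 3 loci above, passed in every leave-one-out fit. AT3G10040, which the tables also name HRA1 (HYPOXIA RESPONSE ATTENUATOR1), a transcription factor that dampens the low-oxygen programme, fell by 0.97 from 6.45 and 6.84 to 5.64 and 5.70 (SE 0.23, limma adjusted p = 0.0233). AT1G33055 (-0.75) fell too, as did AT3G29970 (-2.10) and AT4G33560, both with a cold mean below the filter level.

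Not every member of the low-oxygen list was lower. PDC2, a pyruvate decarboxylase that opens the route from pyruvate to ethanol, rose from 9.16 and 9.24 to 9.91 and 10.15 (difference 0.83, SE 0.16, limma adjusted p = 0.00748). AT4G10270 rose from 8.48 and 8.54 to 10.06 and 9.93 (difference 1.49, SE 0.23, limma adjusted p = 0.00202) and passed in every leave-one-out fit. The 8 tested members that did not pass included AT4G24110 (-0.59, limma adjusted p = 0.0539) and AT5G10040 (-1.63, limma adjusted p = 0.173). PDC2 was also the 1 of 9 tested genes of glycolysis and fermentation that passed, and the median of those 9 was -0.33. With 1 array left out, 7 to 11 members fell and 1 or 2 rose. AT3G10040 and AT1G33055 were lost in each of the 4 fits without a 35S-GSH1 array, with limma adjusted p up to 0.169 for AT3G10040 (without warm 2) and 0.125 for AT1G33055 (without cold 2). AT3G29970 was lost without either warm array or cold 2 (up to 0.205, without warm 1), and PDC2 without warm 1 or cold 2 (up to 0.103, without cold 2).

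Genes for proteins of the cytosolic ribosome, the machine that translates nuclear messages, were mostly lower at 4 °C. A first list of 35 loci had 14 tested members, all with differences below 0 and a median of -0.43. Of these, 3 fell (21.4%, against 2.23% of all genes), namely AT5G02870 (-0.74), AT1G25260 (-0.71) and AT1G27400 (-0.70). A fuller list of 232 loci was then written, after these values had been seen. It had 133 members on the array and 118 tested, of which 110 were below 0, 36 fell (30.5%, against 2.23% of all genes) and 0 rose (against 2.43%). The median difference was -0.55, beside 0.0066 for all genes, and the median level over its members was 8.80 and 8.54 on the warm arrays and 8.10 and 8.06 on the cold arrays. The largest fall of a called member was that of AT4G10450, from 7.44 and 7.05 to 5.96 and 5.83 (difference -1.35, SE 0.20, limma adjusted p = 0.00187). AT5G58420 fell from 8.13 and 8.03 to 7.03 and 6.98 (difference -1.08, SE 0.17, limma adjusted p = 0.00239). The next by adjusted p were AT5G27850 (-1.0), AT2G32060 (-1.03), AT4G17390 (-0.99) and AT3G11510 (-0.91). In all 6 the cold arrays lay below the warm arrays without overlap, as they did in every call that fell.

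The direction of the ribosomal list held in all settings, while the number of calls did not. Its median lay between -0.64 and -0.43 under every alternative. The count that fell was 5 without warm 1, 15 without warm 2, 16 without cold 1 and 5 without cold 2, 24 on the deposited scale, and 1 without the intensity trend. AT4G10450 and AT5G58420 passed in every leave-one-out fit. AT5G27850 and AT4G17390 were lost without cold 2 (limma adjusted p = 0.0586 and 0.0721), AT2G32060 and AT3G11510 without cold 2 (0.0617 and 0.0838) or warm 1, and the 3 called loci of the first list in each fit without a 35S-GSH1 array (up to 0.282). Many ribosomal protein genes have near-identical copies, and a probe set may read several of them. EIF4A-2, an RNA helicase of the complex that loads ribosomes on messages, fell by 0.66 from 9.23 and 9.58 to 8.77 and 8.73 (SE 0.17, limma adjusted p = 0.0362), and was likewise lost in each fit without a 35S-GSH1 array (up to 0.244, without warm 2).

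**Figure D4:**
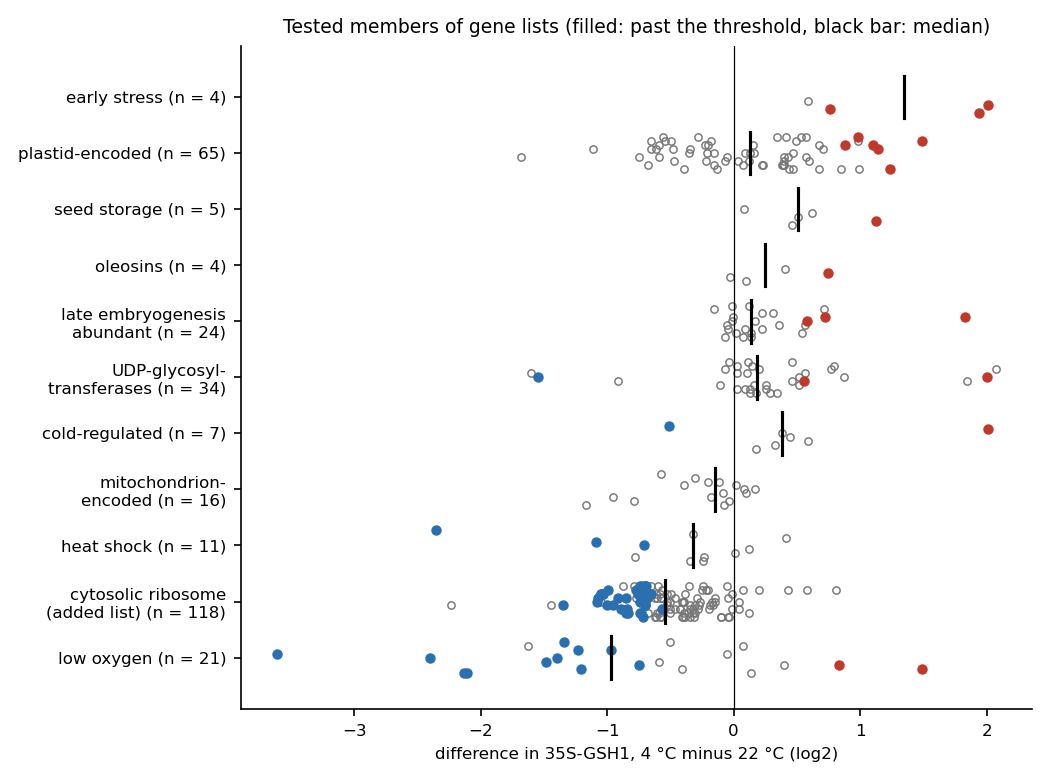
Difference between 4 °C and 22 °C in 35S-GSH1 seeds (log2, horizontal axis) for each tested member of 11 gene lists; filled points passed the threshold (red higher, blue lower), open points did not, black bars are medians, and n is the number tested. The low-oxygen and ribosomal lists lie mostly to the left of 0, and the early stress list to the right; a gene in several lists appears in each.

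The plastid-encoded genes, which the plastid transcribes from its own genome, showed a few rises within a wide spread. Of 65 tested, 6 rose (9.23%) and 0 fell, against 2.43% and 2.23% of all genes, with differences from -1.68 to 1.49 and a median of 0.13. Without the intensity trend 0 rose and 0 fell, and with the 35S-GSH1 arrays alone 7 rose and 1 fell. The gene psaB, which encodes a core protein of photosystem I, rose from 7.17 and 6.99 to 8.57 and 8.57 (difference 1.49, SE 0.25, limma adjusted p = 0.00365). A maturase for plastid introns, matK, rose by 1.24 (limma adjusted p = 0.0172). The ribosomal protein genes rps19 and rps2 rose by 1.14 and 0.88 (limma adjusted p = 0.0215 and 0.0318). The gene ndhI, for a subunit of the plastid NADH dehydrogenase-like complex, rose by 1.10 (limma adjusted p = 0.00507), and rpoC1, for a subunit of the plastid's own RNA polymerase, by 0.99 (limma adjusted p = 0.0296). Of the 6, psaB passed in every leave-one-out fit, and 2 to 7 plastid genes rose in these fits. The calls of matK and rps2 were lost without warm 2 (0.135 and 0.241) or either cold array. That of rps19 was lost without cold 1 (0.174) or either warm array, that of ndhI without cold 2 (0.0738) or warm 2, and that of rpoC1 in each fit without a 35S-GSH1 array (up to 0.183, without warm 2). FUG1, a nuclear gene for the translation initiation factor of chloroplasts, rose by 1.10 from 5.44 and 4.90 to 6.48 and 6.05 (SE 0.24, limma adjusted p = 0.0184), and its call was lost without warm 2 and without cold 1 (0.176).

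Among 16 mitochondrion-encoded genes 0 passed with limma, and 2 had an unadjusted p under 0.05. With the 35S-GSH1 arrays alone 1 fell, as did 1 without cold 1. Their median difference was -0.15, and it ranged from -0.35 to 0.12 over the alternatives, so its sign was not stable. The lowest was nad4, a subunit of respiratory complex I, with 9.61 and 8.80 warm and 8.73 and 7.35 cold (difference -1.16, SE 0.48, limma adjusted p = 0.199). The cold replicates of nad4 differed by more than the group means did.

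Genes around glutathione were few on the array. A single gene was called in each of the lists for glutathione, tau-class transferases and ascorbate, and each was lower in the cold. Of all genes 2.23% fell, and these calls describe the genes and not the lists. The list medians were 0.24 for glutathione, 0.19 for tau-class transferases and -0.42 for ascorbate and peroxiredoxins. GR1, the glutathione reductase of the cytosol and peroxisomes, which restores reduced glutathione, had 8.19 and 8.01 warm and 7.23 and 7.16 cold. GR1 fell by 0.90 (SE 0.19, limma adjusted p = 0.0116). It was 1 of 3 tested genes of 24 listed for glutathione synthesis and turnover. The organellar reductase GR had 7.70 and 7.67 warm and 8.0 and 8.02 cold (difference 0.32, SE 0.16, limma adjusted p = 0.309), and the glyoxalase GLY2 had a difference of 0.24 (limma adjusted p = 0.462). Of 4 tested tau-class glutathione transferases, GSTU22 fell from 5.90 and 5.64 to 4.37 and 4.51 (difference -1.33, SE 0.28, limma adjusted p = 0.0138), and the other 3 had differences of 0.10 to 0.56. ATMDAR2, a monodehydroascorbate reductase that regenerates ascorbate, was 1 of 5 tested genes of the ascorbate and peroxiredoxin list and fell from 4.32 and 3.37 to 1.77 and 1.67, below the filter level (limma adjusted p = 0.0458). Among 4 tested glutaredoxins, 6 thioredoxins and 3 genes of sulfate assimilation, 0 passed with limma and 0 had an unadjusted p under 0.05. GR1, GSTU22 and ATMDAR2 had their highest limma adjusted p, 0.112, 0.130 and 0.314, without warm 1. GR1 was also lost without either cold array, GSTU22 in each fit without a 35S-GSH1 array, and ATMDAR2 in 7 of the 8 leave-one-out fits.

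UDP-glycosyltransferases attach sugars to hormones and secondary products. Of 34 tested, 2 rose (5.88%) and 1 fell (2.94%), near the 2.43% and 2.23% of all genes, while 28 differences were above 0, with a median of 0.19. UGT73B4 fell by 1.55 from 5.58 and 5.78 to 4.57 and 3.69 (SE 0.30, limma adjusted p = 0.00755). UGT76E12 rose by 0.56 from 9.93 and 9.81 to 10.50 and 10.36 (SE 0.15, limma adjusted p = 0.0400), and UGT85A7 by 2.0 from 1.47 and 2.93, below the filter level, to 4.06 and 4.35 (SE 0.52, limma adjusted p = 0.0360). The call of each gene depended on single arrays. UGT73B4 was lost without cold 2 (0.0929) or either warm array, UGT85A7 without warm 1 (0.223) or either cold array, and UGT76E12 in 6 of the 8 fits (up to 0.269, without cold 1).

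Some chaperone and protease genes were lower in the cold. Of 11 tested loci of the heat shock list 3 fell (27.3%, against 2.23% of all genes) and 0 rose, with a median of -0.32. Besides AT5G51440 these were AT3G09440, from 10.23 and 9.93 to 8.97 and 9.02 (difference -1.09, SE 0.20, limma adjusted p = 0.00524), and AT2G29500, from 11.52 and 11.82 to 10.97 and 10.96 (difference -0.71, SE 0.15, limma adjusted p = 0.0143). ATERDJ3B, a co-chaperone of the endoplasmic reticulum, fell by 1.22 (limma adjusted p = 0.0168) and Fes1A, a cytosolic partner of HSP70, by 0.65 (limma adjusted p = 0.0190). The cysteine proteinase CP1 fell by 1.26 from 6.28 and 6.0 to 5.06 and 4.68 (SE 0.33, limma adjusted p = 0.0399). In the other direction, UBP22, a ubiquitin-specific protease, rose by 1.23 (limma adjusted p = 0.0198) and ATL5 (AT3G62690), a RING-type ubiquitin ligase, by 1.06 (limma adjusted p = 0.0201). The proteasome, ubiquitin-conjugating and U-box families had 2, 11 and 6 tested members, 0 passed with limma, and 1, 2 and 1 had an unadjusted p under 0.05. Apart from AT5G51440, each of these calls was lost in some leave-one-out fits. AT3G09440 was lost without warm 1 (0.0760), AT2G29500 and UBP22 without warm 2 (0.125 and 0.154) or either cold array, and ATL5 without cold 2 (0.181), cold 1 or warm 1. ATERDJ3B, Fes1A and CP1 were lost in each fit without a 35S-GSH1 array, with the highest adjusted p without warm 1 (0.149, 0.135 and 0.232).

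Genes of the mature seed stayed bright at both temperatures, and the few that passed were higher in the cold. Seed storage proteins and oleosins, the coat proteins of oil bodies, are defining products of the maturing embryo, and the 9 such genes on the array were all above the filter level. Storage protein genes had levels from 5.06 to 13.18 warm and from 6.43 to 13.30 cold. PAP85, a vicilin-like storage protein, had 13.18 and 13.10 warm and 13.14 and 13.30 cold, with overlapping groups. AT2G18540, of the storage list, rose from 5.06 and 5.83 to 6.43 and 6.70 (difference 1.12, SE 0.29, limma adjusted p = 0.0378), and AT3G18570, of the oleosin list, from 9.69 and 9.62 to 10.27 and 10.53 (difference 0.75, SE 0.16, limma adjusted p = 0.0137). Each was the 1 member of its list to pass, of 5 and of 4 tested.

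Late embryogenesis abundant proteins protect cells as they dry. Of 24 tested, 3 rose (12.5%, against 2.43% of all genes) and 0 fell, and the median was 0.14. The count was 1 without warm 1, without cold 1, without cold 2, without a filter and without the intensity trend. Beside AT2G42560, AT4G36600 rose by 0.73 from 10.70 and 11.15 to 11.55 and 11.75 (SE 0.17, limma adjusted p = 0.0256), and AT2G23120 by 0.58 from 10.52 and 10.41 to 11.16 and 10.93 (SE 0.14, limma adjusted p = 0.0303). BZIP53, a transcription factor that activates maturation genes, rose by 1.18 from 7.72 and 7.35 to 8.92 and 8.52 (SE 0.21, limma adjusted p = 0.00458), as the 1 of 11 tested bZIP genes that passed. Among 9 tested genes of reserve mobilisation, 1 fell (CP1) and 0 rose, with a median of 0.014. Of the seed genes called, AT2G42560 alone passed in every leave-one-out fit. AT2G18540 and AT4G36600 were lost without warm 1 (0.316 and 0.229) or either cold array, AT3G18570 without cold 2 (0.152) or either warm array, BZIP53 without cold 1 (0.0638) or warm 2, and AT2G23120 in each fit without a 35S-GSH1 array (up to 0.259, without cold 1).

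Markers of other tissues gave only a weak check of the seed label, since few listed loci were on the array. Of 7 pollen loci 2 were on it, of 7 leaf and meristem loci 1, and of 6 embryo identity loci 0. The 2 pollen loci and the meristem gene CLV3 on the array had means below the filter level, and their highest single value was 3.61. Of 3 seed coat genes 1 was above it, DFR, with 3.06 and 2.59 warm and 3.49 and 3.47 cold. The 1 endosperm locus on the array, AT1G71250, had 7.66 and 7.20 warm and 7.19 and 6.77 cold (difference -0.46, SE 0.25, limma adjusted p = 0.348). Of 6 nuclear photosynthesis genes 4 were tested, 0 passed with limma and 1 had an unadjusted p under 0.05. The summed intensity of the 6 was 419.8 and 436.6 warm and 580.5 and 563.5 cold. The highest single level among them was 8.08 warm and 8.67 cold, and such a sum is weighted to the brightest member. The part of these genes in the rises of plastid genes was not tested.

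Regulators of stress and of the clock were among the rises. The early stress list had 33 loci, of which 4 were tested. Of these, 0 fell (against 2.23% of all genes) and 3 rose (75%, against 2.43%), namely STZ, AT1G18740 and AT4G29780. The count that rose was 2 with median centring and 2 without the intensity trend. AT4G29780 went from 6.72 and 6.75 to 7.48 and 7.51 (difference 0.76, SE 0.18, limma adjusted p = 0.0213). WRKY6, the other tested member, had a difference of 0.59 (limma adjusted p = 0.177). WRKY22, a transcription factor of immune signalling and 1 of 5 tested WRKY genes, rose from 5.43 and 5.13 to 6.77 and 6.58 (difference 1.40, SE 0.21, limma adjusted p = 0.00187). GI (GIGANTEA), which links the circadian clock to flowering, rose from 5.39 and 5.61 to 6.74 and 6.70 (difference 1.22, SE 0.20, limma adjusted p = 0.00281). The 3 tested genes of the clock and flowering list had a median difference of 0.59, and GI was the 1 that passed. TIC (TIME FOR COFFEE), a nuclear regulator of the clock, rose by 1.0 from 6.02 and 6.48 to 7.24 and 7.26 (SE 0.21, limma adjusted p = 0.0116). WRKY22 and GI passed in every leave-one-out fit. TIC was lost without warm 1 (0.133) or either cold array, and AT4G29780 in each fit without a 35S-GSH1 array (up to 0.138, without cold 2).

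Among the classical cold-regulated genes 1 rose and 1 fell, which describes those genes and not the list. Of 37 listed, 11 were on the array and 7 were tested, 6 of them with differences above 0 and with a median of 0.39. The shares were 14.3% each, against 2.43% higher and 2.23% lower of all genes. On the deposited scale, with the filter at the 20th percentile, without a filter and without the intensity trend, 0 fell. STZ, also in the early stress list, was the 1 that rose. TIL, a lipocalin named for its induction by temperature, was the 1 that fell, from 12.32 and 12.30 to 11.79 and 11.80 (difference -0.51, SE 0.14, limma adjusted p = 0.0404), a call lost in 6 of the 8 leave-one-out fits (up to 0.190, without cold 1). COR27, a cold gene that also acts in the clock, had a difference of 0.45 (SE 0.19, limma adjusted p = 0.202). COR15A, COR15B and COR47, well-known targets of the CBF cold pathway, had means below the filter level, with levels of 0.71 to 3.69 over the 4 arrays. LBD16, a transcription factor of lateral root initiation that acts after auxin, fell from 7.63 and 7.54 to 6.44 and 6.56 (difference -1.08, SE 0.19, limma adjusted p = 0.00404) and passed in every leave-one-out fit. Among tested genes of gibberellin (5), auxin (3) and ethylene (2), 0 passed with limma and 0 had an unadjusted p under 0.05.

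The temperature comparison in Col-0 seeds gave values that can be set beside those of 35S-GSH1. In Col-0, 953 of 13648 probe sets passed (6.98%). The genotypes shared 469 calls, 61.6% of those of 35S-GSH1 and 49.2% of those of Col-0, and the direction of all 469 was the same. Both comparisons took the variance of a probe set from the same fit over all 8 arrays, so the shared calls are not independent. Of the 762 probe sets called in 35S-GSH1, 754 had the same sign in Col-0. They were chosen for their difference in 35S-GSH1, and the same-sign share of all probe sets tested was not counted. Over all 13648, the differences in 35S-GSH1 and Col-0 correlated at 0.568 (Pearson). The median difference of low-oxygen loci was -1.13 in Col-0, that of the fuller ribosomal list -0.64 and that of plastid-encoded genes 0.0076. Of the 44 called genes with a symbol, 41 had the same sign in Col-0, and UGT85A7, CHR23 and ATMDAR2 had the opposite one.

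Whether the response to temperature depended on genotype was tested with the interaction, for which the Col-0 difference was subtracted from the 35S-GSH1 difference. No probe set passed with limma (0%, 0 of 13648), the smallest adjusted p was 0.9996, and 453 had an unadjusted p under 0.05. The count was 0 in each alternative setting that could fit it. At 95% confidence the interaction had a median half-width of 0.74, against 0.52 for the difference in 35S-GSH1, without adjustment for the number of probe sets. The adjusted threshold asks for more than that, so that the count of 0 does not show that interactions were absent. The smallest unadjusted p-values of named genes were those of PDF1.4, a plant defensin gene (interaction -1.79, SE 0.44), AT4G28703 (-3.40, SE 0.84), UGT85A7 (2.87, SE 0.73), AT2G34990 (-3.60, SE 0.93) and AT3G05100 (-1.62, SE 0.45), each with an adjusted p of 0.9996. UGT85A7 had differences of 2.0 in 35S-GSH1 and -0.87 in Col-0, and PDF1.4 had -0.66 and 1.13. In Col-0, GR1 and GSTU22 had differences of -0.65 and -0.91 (limma adjusted p = 0.0506 and 0.0703), and ATMDAR2 had 0.55. For these 3 genes, too, the difference between genotypes did not pass the test.

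**Figure D5:**
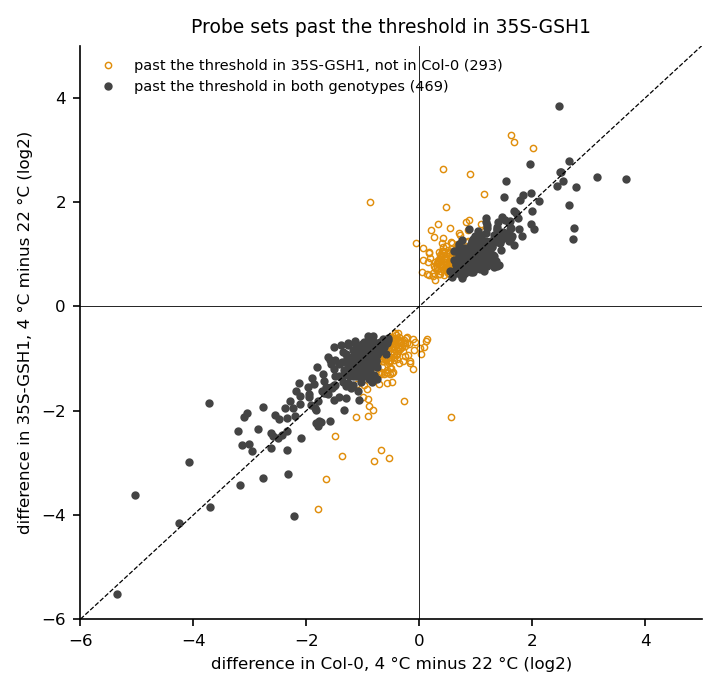
Difference between 4 °C and 22 °C in Col-0 (log2, horizontal axis) and in 35S-GSH1 (log2, vertical axis) for the 762 probe sets past the threshold in 35S-GSH1. Filled points (469) also passed in Col-0 and open points (293) did not, and the dashed line marks equal differences; the points were chosen for their difference on the vertical axis.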

How the data were processed

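Seeds were measured on 8 arrays, 4 of them of 35S-GSH1. The authors deposited a linear intensity for each of 22746 probe sets. The submitters' processing notes name GCOS, with version, summary algorithm and scaling not given in the sources used here. Across arrays, the median deposited intensity per array was 12.3 to 16.2, and 35S-GSH1 4 °C replicate 1 stood 10.0% above the median of the arrays in its trimmed mean. Intensities were quantile normalized and taken as log2(intensity + 1). Probe sets whose mean was under the 40th percentile (2.86, an intensity of 6.26) were left out, which kept 13648. The test was limma 3.58.1 in R 4.3.3, two-sided, with a coefficient per group over all 8 arrays, 4 residual and 9.93 prior degrees of freedom, an intensity trend, and Benjamini-Hochberg adjustment with a threshold of 0.05. The fit was tested on simulated data.

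In the tables used for names 13513 probe sets had 1 gene, 503 several and 8730 none; 13436 of the first matched RefSeq TAIR10.1 and 77 did not. A gene with several probe sets was represented by the brightest; no other probe set of a gene named differed from it in call. The genes named were the 15 largest differences in each direction measured at both temperatures, the 5 largest with a lower mean below the filter, members of the lists by adjusted p, and the 5 smallest interaction p-values; all 44 called genes with a symbol are named besides, a choice made after their values were seen. The 15 and the 5 were taken among calls whose groups did not overlap, a condition that all 762 calls met. The members and lists were chosen with earlier results of these data known, and the fuller ribosomal list after the values here. Alternatives were another pseudocount (16), the deposited scale, median centring, other filters, other moderation, the 35S-GSH1 arrays alone, a replicate block, and leaving out each array, with the remaining array of that group taken to vary as the other groups do. Promoter motifs were planned, but sequences were not used here.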

Additional observations from a re-analysis of the deposited data

How the results depend on the processing

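With 2 arrays per group, precision is limited by their number. The 762 calls in 35S-GSH1 (382 higher, 380 lower) became 117 (46 and 71) when variances were moderated without the intensity trend. The higher calls were 609 on the deposited scale and 218 with median centring. Leaving out 1 array gave 257 to 792 calls, 116 to 416 of them higher and 121 to 389 lower; the low counts came from leaving out a 35S-GSH1 array, which kept 233 to 299 of the 762. Counts stayed within 1.5 times with a pseudocount of 16 (832), the filter at the 20th percentile (730), no filter (531), robust priors (794) and the 35S-GSH1 arrays alone (981). All calls that these settings shared with the 762 had the same direction, and the interaction had 0 calls in each setting that could fit it. Of 113 called genes and probe sets named in the text, 80 lost their call without the trend, 35 without a filter, 17 with median centring, 10 on the deposited scale and up to 3 under the other settings that kept all arrays; without a 35S-GSH1 array it was 48 to 59. The cause was not tested, and 0 reversed. With the replicate number as a block (replicate block), 1386 passed, 724 higher and 662 lower, all 762 among them, and 3 mitochondrion-encoded genes fell, against 0; correlations of replicate differences between groups were 0.051 to 0.143, and the labels do not say that numbers pair samples.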

Other observations

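Genes of growth, the cell wall and chromatin were among the called genes with a symbol that the text has not described. COB (COBRA), which guides the orientation of cellulose microfibrils, rose in 35S-GSH1 at 4 °C from 5.02 and 5.25 to 6.24 and 6.22 (difference 1.10, SE 0.21, limma adjusted p = 0.00802). FRA3, an inositol phosphatase needed for secondary walls and actin organisation, rose by 1.09 (limma adjusted p = 0.0449), and EXLA1, an expansin-like gene and 1 of 7 tested expansins and xyloglucan enzymes, by 1.01 (limma adjusted p = 0.0175). TRM20, of a family that recruits a microtubule-organising complex, rose by 0.82, the tetraspanin TET8 by 1.04, the beta-glucosidase BGLU19 by 0.67 and the plantacyanin ARPN by 0.65. CHR23, a remodeller of the SWI2/SNF2 type, rose from 4.59 and 5.30 to 6.08 and 6.23 (difference 1.21, SE 0.25, limma adjusted p = 0.0136), and its difference in Col-0 was -0.057. The interaction of CHR23 had an adjusted p of 0.9996. ATRX, a chromatin protein linked to histone H3.3, rose by 0.99, IYO (MINIYO), a positive regulator of transcript elongation, by 0.96, and RAD4, named after the yeast repair factor, by 0.77.

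Enzymes of central metabolism were among the falls: IDH-VI, an isocitrate dehydrogenase, fell by 0.92 (limma adjusted p = 0.0425) and the plastid malate dehydrogenase MDH by 0.78 (limma adjusted p = 0.0301). BIGYIN (FIS1A), which acts in the division of mitochondria and peroxisomes, fell by 0.80 from 9.05 and 9.15 to 8.22 and 8.39 (SE 0.18, limma adjusted p = 0.0185). CP5 fell by 0.71 (limma adjusted p = 0.0296). AT2G41730, of the list for alternative respiration and mitochondrial stress, fell by 1.56 from 7.32 and 6.59 to 5.49 and 5.30 (SE 0.39, limma adjusted p = 0.0317), on a probe set marked as open to cross-hybridisation, and was the 1 of 7 tested that passed. Each of the calls in these paragraphs was lost in at least 1 fit without a 35S-GSH1 array. COB and CHR23 were lost without warm 1 (0.0815 and 0.148) or either cold array, TRM20 without cold 1 (0.247), cold 2 or warm 1, and BGLU19 without warm 2 (0.215) or either cold array. TET8 and EXLA1 were lost without cold 1 (0.0690 and 0.189) or either warm array, and FRA3, ATRX and IYO without cold 2 (0.350, 0.290 and 0.145) or either warm array. ARPN, RAD4, MDH, BIGYIN, CP5 and AT2G41730 were lost in each of the 4 fits without a 35S-GSH1 array, up to 0.189, 0.123, 0.169, 0.139, 0.218 and 0.256. IDH-VI was lost in 6 of the 8 leave-one-out fits (up to 0.267, without cold 1).

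Some of the largest differences lay in probe sets that the tables pair with no gene. The probe set 263096_at had 10.43 and 10.52 at 22 °C and 5.12 and 4.79 at 4 °C, a fall of 5.52 (45.7-fold lower, SE 0.20, limma adjusted p = 2.4e-09). 245951_at fell by 3.86 and 250580_at by 3.43. In the other direction 263064_at rose by 2.79, 252212_at by 2.49 and 264661_at by 2.43. All 6 passed in every leave-one-out fit, and the identity of their genes was not analysed here.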
